A study of Drosophila melanogaster with 3 samples.

Results

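The genes described here are the 32 small nuclear RNA (snRNA) genes of the fly genome, taken as every gene of biotype snRNA on the main chromosome arms of the BDGP6.54 annotation, of 18164 annotated genes on the same 6 arms. They comprised 5 U1, 6 U2, 3 U4, 7 U5 and 3 U6 genes, 4 genes of the minor spliceosome (U11, U12, U4atac and U6atac) and 4 genes outside the spliceosome or unclassed (7SKa, 7SKb, U7 and LU). The rule used no measured value, though it was set with earlier results of these data known. The data were chromatin immunoprecipitation sequencing (ChIP-seq) peaks from 1 group of 3 biological replicates, whole Drosophila melanogaster embryos of strain mam-MiMIC-GFP aged 0 to 24 hours with male and female animals pooled. All carried an eGFP exon in an intron of mam, so that Mastermind (Mam) was made as an eGFP fusion, and chromatin was precipitated with an anti-GFP antibody. The whole embryos held all cell types together, and an untagged or input control was not analysed here. With 1 group there was no contrast between conditions and no test of one, so the results are positions, counts and levels.

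The spliceosome removes introns from pre-mRNA, and its RNA parts U1, U2, U4, U5 and U6 are encoded in the fly by small gene families with near-identical copies. Most snRNA genes are transcribed by RNA polymerase II, while U6, U6atac and 7SK genes are transcribed by RNA polymerase III. Both kinds use a shared promoter element upstream of the gene, the proximal sequence element, which binds the snRNA activating protein complex SNAPc, and in flies the polymerase III genes have a TATA box downstream of it. Mastermind is a nuclear coactivator of Notch signalling, which joins the cleaved Notch receptor on DNA bound by Suppressor of Hairless, Su(H).

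The promoters of the 7 genes that had a reproducible Mam-GFP summit within 500 bp of their 5' end are shown first, because these letters are what the members share. Each line gives 70 bases before and 10 bases after the 5' end on the transcribed strand, from the RefSeq sequence of the Release 6 assembly (dm6). Capitals mark the core of the proximal sequence element (TTCNCAA) and, where present, TATA box letters (TATAAA or TATATA).
U6:96Ab (chr3R:24556622-24556701, plus strand): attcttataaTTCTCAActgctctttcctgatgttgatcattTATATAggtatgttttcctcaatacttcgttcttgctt
U6:96Ac (chr3R:24557145-24557224, plus strand): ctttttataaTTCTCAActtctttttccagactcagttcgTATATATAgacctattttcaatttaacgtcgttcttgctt
U5:35D (chr2L:15751673-15751752, minus strand): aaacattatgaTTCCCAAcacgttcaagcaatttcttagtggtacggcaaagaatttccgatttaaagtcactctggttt
U1:95Ca (chr3R:23859621-23859700, minus strand): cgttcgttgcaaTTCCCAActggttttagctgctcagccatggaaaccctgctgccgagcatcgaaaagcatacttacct
U2:34ABb (chr2L:13215769-13215848, plus strand): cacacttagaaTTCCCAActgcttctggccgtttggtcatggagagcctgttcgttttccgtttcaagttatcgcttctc
U5:63BC (chr3L:3090731-3090810, plus strand): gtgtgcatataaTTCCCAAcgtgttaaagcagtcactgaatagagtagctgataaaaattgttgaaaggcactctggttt
U4:39B (chr2L:21215169-21215248, minus strand): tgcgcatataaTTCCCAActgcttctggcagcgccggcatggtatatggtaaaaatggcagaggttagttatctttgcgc

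The next 5 genes had a summit in the pooled list but none in the reproducible list, and are shown for comparison with the same capitals.
7SKa (chr3R:7474987-7475066, minus strand): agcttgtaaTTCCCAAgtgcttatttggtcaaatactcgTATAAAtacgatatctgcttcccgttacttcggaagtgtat
U1:21D (chr2L:901645-901724, minus strand): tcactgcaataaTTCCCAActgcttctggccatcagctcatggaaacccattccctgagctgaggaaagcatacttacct
U2:34ABa (chr2L:13212107-13212186, minus strand): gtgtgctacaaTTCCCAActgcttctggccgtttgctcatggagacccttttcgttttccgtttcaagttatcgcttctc
LU (chr2L:3046695-3046774, plus strand): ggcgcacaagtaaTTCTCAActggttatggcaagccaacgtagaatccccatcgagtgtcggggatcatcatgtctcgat
U12 (chr3L:16653699-16653778, plus strand): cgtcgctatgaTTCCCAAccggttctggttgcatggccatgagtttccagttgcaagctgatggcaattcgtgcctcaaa

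The last 4, from the U1, U2, U4 and U6 families, had no summit in the pooled list and are shown to set their promoters beside those of copies with one.
U1:82Eb (chr3R:4948087-4948166, minus strand): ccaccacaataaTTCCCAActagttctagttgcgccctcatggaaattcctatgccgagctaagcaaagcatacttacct
U2:14B (chrX:16254602-16254681, plus strand): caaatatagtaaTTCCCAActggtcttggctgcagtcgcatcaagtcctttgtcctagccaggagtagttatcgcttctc
U4:25F (chr2L:5565549-5565628, plus strand): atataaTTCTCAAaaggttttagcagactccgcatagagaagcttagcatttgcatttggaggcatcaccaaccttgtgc
U6:96Aa (chr3R:24556018-24556097, plus strand): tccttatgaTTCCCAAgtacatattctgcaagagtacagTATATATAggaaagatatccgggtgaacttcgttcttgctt

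The core of the proximal sequence element was present upstream of 31 of the 32 genes at nearly the same place. On the transcribed strand it started at positions from -64 to -55 relative to the 5' end, with a median of -58. The letters were TTCCCAA in 26 genes and TTCTCAA in the other 5, which were U6:96Ab, U6:96Ac, U2:38ABb, U4:25F and LU. The exception was 7SKb, a gene for the RNA that holds the elongation factor P-TEFb inactive, which had neither the core nor TATA letters at these places. TTCNCAA started 80 to 40 bases upstream on the transcribed strand in 1.62% of all 18164 genes. This form with any base at the fourth place was chosen after the sequences were seen. The form TTCCCAA on either strand, in the window from 250 bases before to 50 after the 5' end, was found in 26 of 32 snRNA genes and 5.30% of all genes.

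TATA letters starting 40 to 20 bases upstream on the transcribed strand were found in 5 snRNA genes, U6:96Aa, U6:96Ab, U6:96Ac, U6atac and 7SKa, and in 8.93% of all genes. The U6 genes had TATATA, a form added after the sequences were seen, and U6atac and 7SKa had TATAAA. None of the 32 windows from 250 bases before to 50 after the 5' end held the letters GTGGGAA of a Su(H) site, TATCGATA of the DNA replication-related element, GAGAGAG of the Trithorax-like protein's sites or GTCACAC of the core promoter element called motif 1, searched on both strands. These letters were found in 3.64%, 7.51%, 5.49% and 7.86% of all genes, in that order. The element core TTCCCAA shares its first letters TTCCCA with the reverse complement of GTGGGAA, so the search letters differ at the last place only. The absence of letters in a window says nothing of whether a factor was there.

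**Figure D1:**
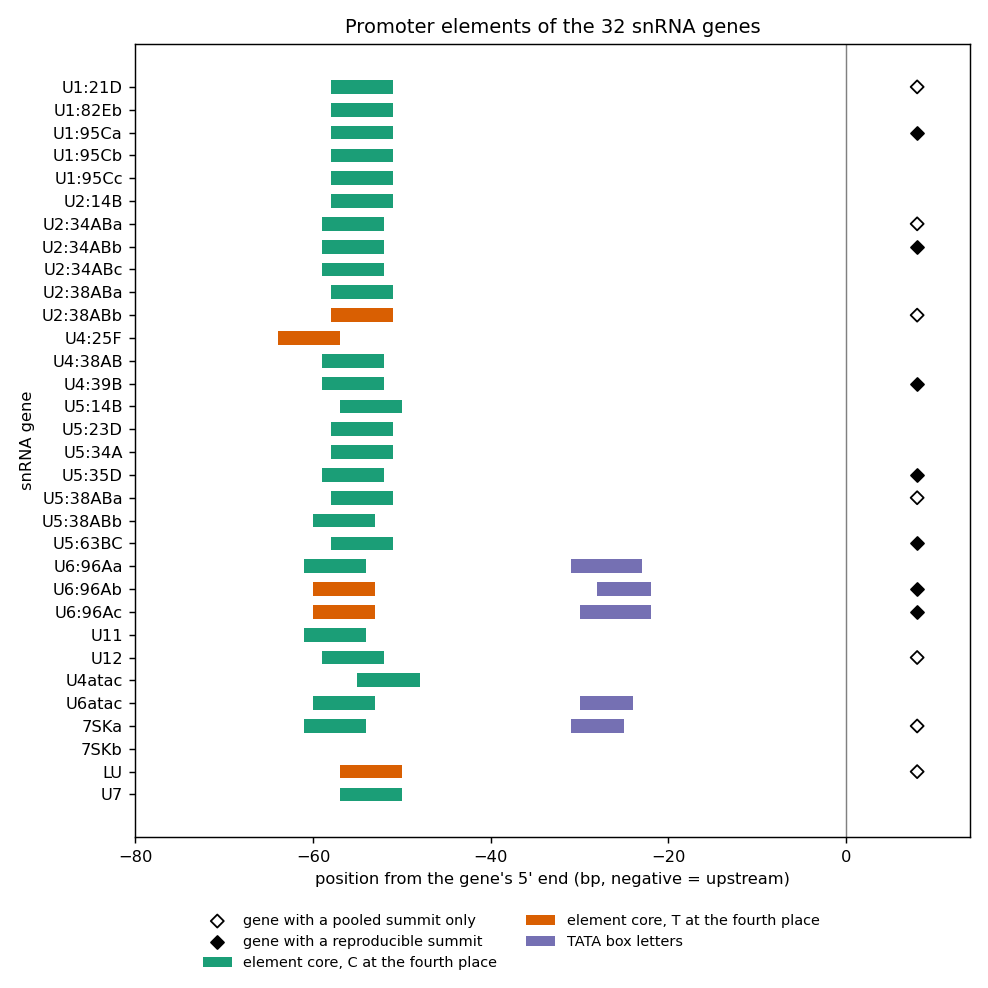
Position of the proximal sequence element core and of TATA box letters before the 5' end of each snRNA gene, in bp, with 1 row per gene. Coloured bars span the letters, and diamonds at the right mark genes with a reproducible summit (filled) or a pooled summit only (open). The core lies in one narrow band in 31 rows, whether or not the gene had a summit.

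Mam-GFP summits lay within 500 bp of the 5' end of 7 of the 32 snRNA genes in the reproducible list, the peaks that passed the authors' irreproducible discovery rate (IDR) threshold. This share of 21.9% (exact binomial 95% interval 9.28% to 40.0%, counting error only) is near the 20.0% of all genes and the 24.1% of 13945 protein-coding genes, so the count sets the snRNA genes apart from neither. For other genes of small or non-coding RNAs the shares were 6.90% of 290 tRNA genes (interval 4.26% to 10.5%), 4.46% of 269 snoRNA genes (2.33% to 7.66%) and 6.87% of 3261 other non-coding RNA genes (6.02% to 7.79%). The difference between these classes was not tested, since genes are not replicates and copies share sequence. The 7 genes had 6 peaks, because U6:96Ab and U6:96Ac lie 523 bp apart and share 1.

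The counts in single replicates were close to this one. Among the 5326 strongest peaks of each replicate, as many as there are reproducible peaks, 7, 7 and 6 snRNA genes had a summit in replicates 1, 2 and 3, or 20.8% ± 1.80 (SD, n = 3). The genes were not the same throughout. Replicate 2 had 7SKa (rank 4652) and lacked U4:39B (rank 6257), and replicate 3 lacked U2:34ABb (rank 6015). All genes had one in 19.1%, 19.9% and 20.3% of cases. In the whole replicate lists, which include background calls, the counts were 15, 12 and 12 of 32, beside 46.6%, 41.7% and 42.2% of all genes. The pooled list of 24073 peaks had a summit at 14 of 32 snRNA genes (43.8%, interval 26.4% to 62.3%), beside 43.5% of all genes. No summit of any of these lists lay within 500 bp of 13 of the 32 genes.

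**Figure D2:**
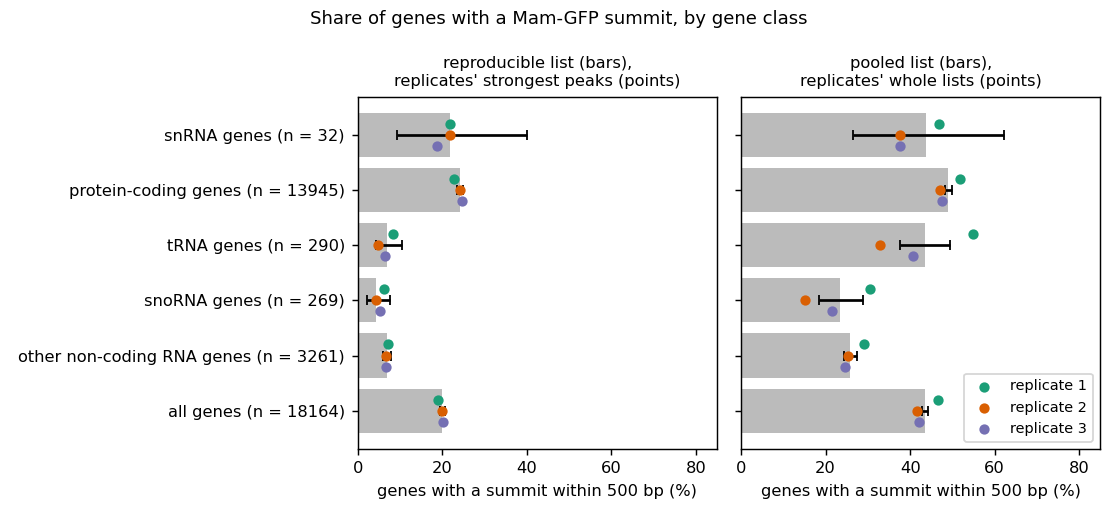
Share of genes, in percent, with a Mam-GFP summit within 500 bp of the 5' end, for 6 gene classes. Bars give the reproducible list (left) and the pooled list (right) with exact binomial 95% intervals, and points give the 3 replicates by their 5326 strongest peaks (left) or whole lists (right). The snRNA bar of 21.9% lies near the all-gene bar of 20.0% on the left, above the tRNA bar of 6.90%.

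Some of the summits fell on the snRNA genes themselves, though this placing is coarse. The samples had fragments of 200 to 800 bp, longer than the median snRNA gene of 154 bp. Of the 7 genes with a reproducible summit, 4 had it between the first and the last base of the gene (U1:95Ca, U2:34ABb, U4:39B and U5:63BC), 1 had it upstream and 2 beyond the gene's end. Replicate 1 placed the summits of U1:95Ca (165 bp) and U4:39B (-43 bp) outside the gene. In the pooled list the strongest summit was inside the gene for 8 of 14, adding 7SKa, U12, U1:21D and U2:34ABa to the 4 above. Replicates 1 and 2 placed that of U2:34ABa past the gene's end, and replicate 3 alone also had that of U12. The pooled list includes background calls. The deposited −log10 q-value was 0.21 at U12 and 0.39 at U2:34ABa, against 2.29 at 7SKa and 2.16 at U1:21D. Pooled summits were inside the gene for 24 of 126 tRNA genes (19.0%) and 5 of 63 snoRNA genes (7.94%). The genes had median lengths of 154 bp for snRNA, 73 bp for tRNA and 134 bp for snoRNA genes. At protein-coding genes the strongest reproducible summit had a median position of -97 bp from the 5' end (negative upstream), and 15.1% of 3359 lay downstream. The downstream share was 35.0% of 20 tRNA genes, 16.7% of 12 snoRNA genes and 38.4% of 224 other non-coding RNA genes. At the 7 snRNA genes the median was +93 bp, and 5 lay downstream, of which the summits of U5:35D and U6:96Ab were beyond the gene. The same U6 summit was counted at both genes, at +402 bp from U6:96Ab and -121 bp from U6:96Ac. The U5:35D summit was nearer to the 5' end of the coding gene ND-B17, and without it the median was +80 bp. The difference in position was not tested.

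For the 4 genes with a summit inside the gene, the choice of these genes already places the summit downstream of the proximal sequence element, and the distances from its first base are a description. The summit was 203 bp from it at U1:95Ca, 151 bp at U5:63BC, 126 bp at U2:34ABb and 59 bp at U4:39B. At U6:96Ac the position relative to that base was -61 bp, on the far side of the element. A second, weaker pooled summit of U1:95Ca, at -56 bp from the 5' end, fell on the element core, which starts at -58.

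**Figure D3:**
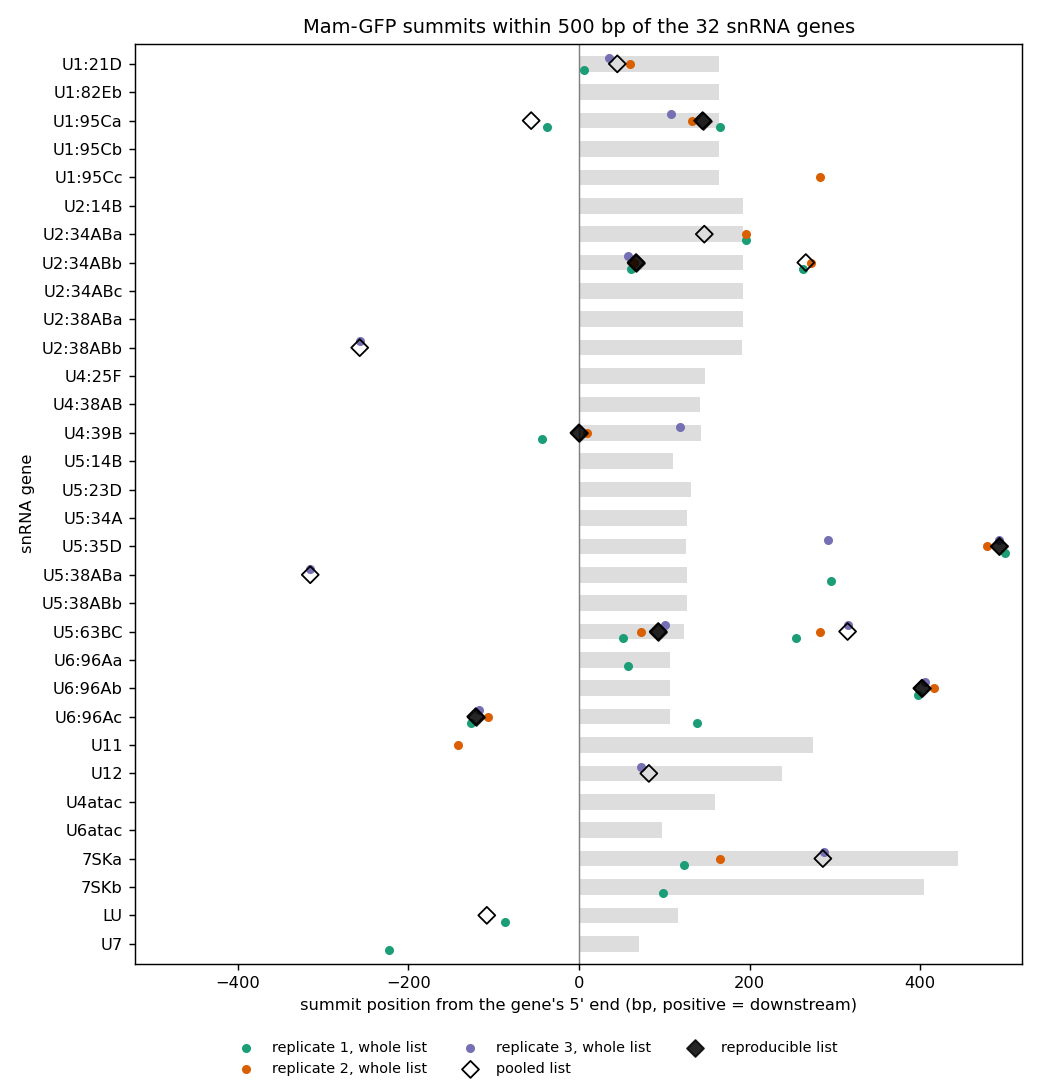
Summit positions in bp from the 5' end of each of the 32 snRNA genes, positive downstream, with 1 row per gene. Grey bars span the gene, dots are summits of the 3 whole replicate lists, open diamonds those of the pooled list and filled diamonds reproducible ones. Dots of the 3 replicates lie near the filled diamonds, with the widest spread at U4:39B, from -43 to +119 bp. On the grey bars lie 4 of the filled diamonds.

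The U6 genes, which encode the catalytic RNA of the spliceosome, carried the peak with the highest signal of the group in the reproducible list and in replicate 1, while in replicates 2 and 3 the peak at U5:35D had a higher signal. They form a cluster of 3 on chromosome arm 3R, from 24556088 to 24557321, all on the plus strand. The peak between U6:96Ab and U6:96Ac had a signal of 333 in the reproducible list, rank 1203 of 5326, where signal is the authors' own value for a peak, of unstated scaling, and rank 1 is the highest. Its summit was 402 bp downstream of the 5' end of U6:96Ab and 121 bp upstream of that of U6:96Ac. The peak ranked 1013, 1170 and 1697 in replicates 1, 2 and 3, and the summit was at a mean of -117 bp ± 9.50 (SD, n = 3) from the 5' end of U6:96Ac. All 3 replicates placed it in the spacer before the third copy and among their strongest peaks. The first copy, U6:96Aa, had no summit in the pooled list and 1 in the whole list of replicate 1 (signal 19.0, rank 18652). The RNA sequences of the 3 copies are identical (107 bases), and their promoters differ. The nearest protein-coding 5' end was that of Esyt2, 8077 bp from the summit.

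Among the 5 U1 genes, whose RNA pairs with the 5' splice site, U1:95Ca carried the 1 reproducible peak. It lay on 3R, gene position 23859467 to 23859630, minus strand, with a signal of 190 (rank 2759). Its summit was 145 bp downstream of the 5' end, inside the gene, with ranks of 2790, 3928 and 2102 in the replicates and positions of 165, 133 and 108 bp, the first of them just past the end of the 164 bp gene. The peak was among the strongest in all 3 replicates, and the nearest protein-coding 5' end, that of Pli, was 30567 bp from the summit. A second pooled summit (signal 96.8) lay upstream, at -56 bp, which replicate 1 had at -38 bp and replicates 2 and 3 did not have. U1:21D came next, with a pooled summit 45 bp into the gene (signal 88.3, rank 6788), found at ranks 5854, 12273 and 8539 in replicates 1, 2 and 3. It therefore ranked below the strongest 5326 in every replicate. U1:82Eb, U1:95Cb and U1:95Cc had no pooled summit, and U1:95Cc had 1 in replicate 2 alone (signal 18.3). The 5 copies had 3 distinct RNA sequences of 164 bases, with 3 identical pairs.

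The 6 U2 genes, whose RNA pairs with the branch site, had a reproducible summit at U2:34ABb. This gene lies on 2L at 13215839 to 13216030, plus strand, and its peak had a signal of 161 (rank 3413) with the summit 67 bp into the gene. The replicates placed the summit at 61, 64 and 57 bp, a mean of 60.7 bp ± 3.51 (SD, n = 3), at ranks 2133, 4049 and 6015. The position was the tightest of the 7 genes, but the rank in replicate 3 was outside the strongest 5326. The kek4 gene, for a transmembrane protein of the Kekkon family, has its nearest 5' end 556 bp from the summit. U2:34ABa, on the opposite strand 3723 bp away, had a pooled summit 147 bp into the gene (signal 50.4). Replicates 1 and 2 placed it at 196 bp, past the end of the 192 bp gene, and replicate 3 had none. U2:38ABb shared a weak pooled summit with U5:38ABa (signal 42.9), between the genes, which replicate 3 also had. U2:14B, U2:34ABc and U2:38ABa had no summit in any list.

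Of the 3 U4 genes, whose RNA pairs with U6 before activation of the spliceosome, U4:39B had the 1 reproducible peak, which had the lowest signal of the 7 genes in the reproducible list and in replicate 2 but not in replicates 1 and 3. It lies on 2L at 21215036 to 21215178, minus strand, on the same strand as Atg18b and overlapping it. The peak had a signal of 132 (rank 4350) and its summit on the first base of the gene. In the replicates the summit was at -43, +9 and +119 bp from the 5' end, with an SD of 82.7 bp (n = 3), the widest spread of the 7. Ranks were 2605, 6257 and 4987, so replicate 2 did not have it among the strongest. U4:25F and U4:38AB had no summit in any list.

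Of the 7 U5 genes, whose RNA holds the exons in place, U5:63BC and U5:35D had a reproducible summit. U5:63BC (3L, 3090801 to 3090923, plus strand) had a signal of 159 (rank 3458) with the summit 93 bp into the gene. The replicates had it at 52, 73 and 101 bp and at ranks 2682, 4780 and 3795, all among the strongest. The next gene start of any kind was a tRNA gene 4843 bp from the summit. A weaker second summit followed in the pooled list and in each replicate, 203 to 222 bp further downstream. At U5:35D (2L, 15751557 to 15751682, minus strand) the peak was stronger, with a signal of 322 (rank 1266) and ranks of 2515, 1009 and 1147, but the summit lay 493 bp downstream. It was 111 bp from the 5' end of ND-B17, a gene for a subunit of mitochondrial complex I, and so nearer to that gene than to U5:35D. U5:38ABa had the shared weak pooled summit named above and another in replicate 1 (signal 20.2), and U5:14B, U5:23D, U5:34A and U5:38ABb had no summit in any list.

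The minor spliceosome genes and the remaining 4 genes had no reproducible summit within 500 bp. U12 had a pooled summit 82 bp into the gene (signal 44.3), seen at 73 bp in replicate 3 and not in replicates 1 and 2. U11 had 1 summit in replicate 2 (signal 12.2), and U4atac and U6atac had none in any list. 7SKa had the highest signal of the genes that missed the threshold, 89.8 in the pooled list (rank 6673), against a lowest reproducible signal of 110. It was found in all 3 replicates, at ranks 7297, 4652 and 5589 and at 123, 165 and 287 bp downstream of the 5' end, inside the 444 bp gene. In replicate 2 alone it was among the strongest 5326 peaks. LU had a pooled summit at -108 bp (signal 44.6), which replicate 1 also had, and U7, whose RNA serves histone mRNA 3' end formation, had a single summit in replicate 1 (signal 15.6). 7SKb, the copy without the promoter element core, had a single summit in replicate 1 (signal 16.1).

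**Figure D4:**
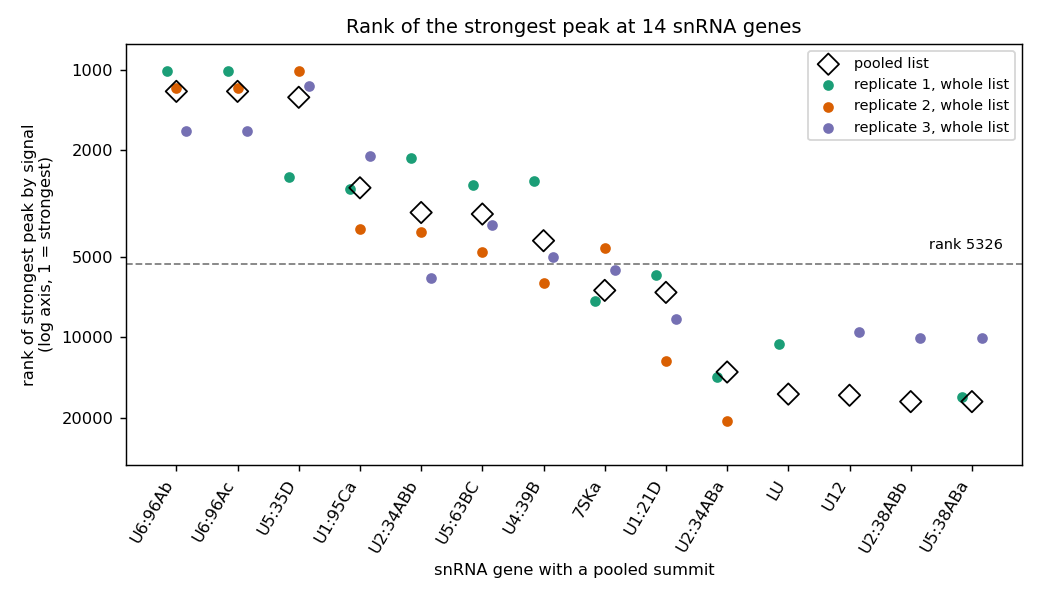
Rank by signal, on a log axis with 1 the strongest, of the strongest peak within 500 bp of the 14 snRNA genes with a pooled summit. Open diamonds give the pooled list and dots the 3 whole replicate lists, and the dashed line marks rank 5326, the number of reproducible peaks. U6:96Ab, U6:96Ac, U5:35D, U1:95Ca and U5:63BC lie above the line in all 3 replicates, and U2:34ABb and U4:39B in 2.

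The median signal at the snRNA genes was near the median of all reproducible peaks, 195. The strongest reproducible peaks of the 7 genes had a median signal of 190, from 132 to 333, beside a median of 228 at all 3627 genes with a reproducible summit and 230 at protein-coding genes. The order of the peaks by pooled signal was U6, U5:35D, U1:95Ca, U2:34ABb, U5:63BC and U4:39B. The replicates did not keep this order. U5:35D ranked above the U6 peak in replicates 2 and 3. U2:34ABb ranked above U5:63BC in replicates 1 and 2 and below it in replicate 3. U4:39B ranked above U1:95Ca and U5:63BC in replicate 1 and above U2:34ABb in replicate 3.

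Where 2 summits stood at 1 gene in the same list, they were 199 to 264 bp apart, in 11 cases over the pooled and replicate lists. Peaks of the pooled list were 396 bp wide in 92.9% of cases, and so neighbouring peaks overlapped. The peaks at U6:96Ab and U6:96Ac (185 bp) and at U5:35D (141 bp) were narrower in the reproducible list.

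Copies within a family can share reads, which the peak lists do not record, and no source used here gives the read length. As a measure of shared sequence, the share of 32-base words within 500 bp of the 5' end that occur once in the genome was counted. It was 81.2% to 94.0% (median 91.2%) for the 7 genes with a reproducible summit. The 7 genes with a pooled but no reproducible summit had 49.1% to 100% (median 94.1%), and the 18 genes with no pooled summit had 45.6% to 100% (median 92.2%). The lowest values were those of U2:38ABa (45.6%), U2:34ABc (47.1%) and U2:38ABb (49.1%), none of which had a reproducible summit. At 100% were the 8 minor and remaining genes and U4:25F, also without one. All 7 genes with a reproducible summit were below 95%, and the part of shared sequence in the results was not tested.

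**Figure D5:**
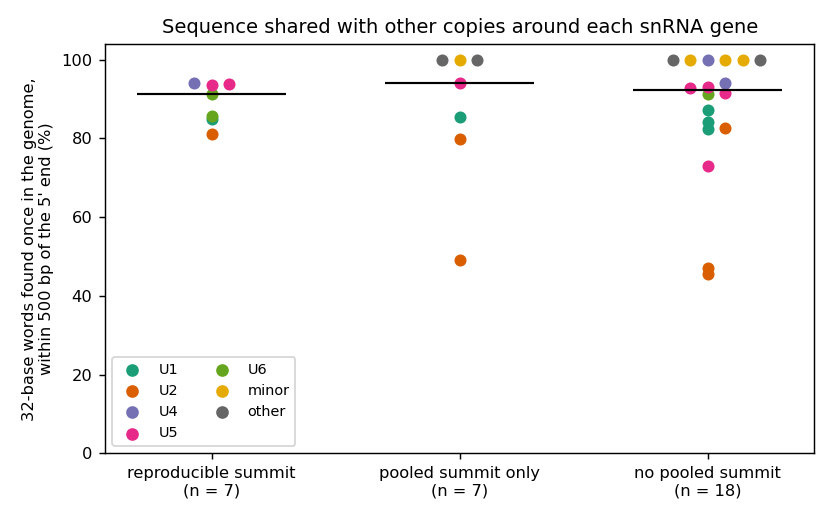
Share of 32-base words, in percent, within 500 bp of the 5' end that occur once in the genome, for each snRNA gene, by whether it had a reproducible, a pooled or no pooled summit. Points are genes coloured by type and lines are medians. The medians are 91.2%, 94.1% and 92.2%, and the genes at 45.6% to 49.1% are copies of U2.

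Genes that make or process snRNAs were looked up in the same way, at 1 annotated 5' end each. Of 48 listed protein-coding genes found in the annotation, 20 had a reproducible summit (41.7%), beside 24.1% of all protein-coding genes, with no test made. The lists were chosen with earlier results of these data known, so this share is a description only. Of the 7 SNAPc and basal factor genes, 2 had one, both for polymerase III initiation factor subunits, Bdp1 (signal 1432, rank 60) and Brf (signal 865, rank 183). The SNAPc subunit genes Pbp49, Pbp95 and Pbp45 had none. The Integrator complex, which cleaves the 3' end of polymerase II snRNA transcripts, had 8 of 14, highest at IntS6 (831), IntS11 (509), IntS9 (496) and defl (476), where the number is the signal. IntS11 encodes the catalytic endonuclease. Among 9 genes for U snRNP proteins 6 had a summit, highest at Prp31 (343), snf (283), U4-U6-60K (278) and snRNP-U1-C (149). The Sm protein genes had 2 of 7 (SNRPG, 268, and SmD3, 136), the SMN complex, which loads Sm proteins on snRNAs, 1 of 6 (Smn, 300), and the export factors 1 of 3 (the cap-binding protein gene Cbp20, 487). The genes Lsm10 and Lsm11, for proteins of the U7 snRNP, had none of 2 in the reproducible list, and both had a pooled summit. In the pooled list, which includes background calls, 38 of the 48 genes had a summit, beside 49.0% of all protein-coding genes. The summit lay upstream of the 5' end at Bdp1 (-106 bp), Brf (-109 bp), IntS6 (-381 bp) and Prp31 (-208 bp), and downstream at Smn (+156 bp). The farthest were upstream, at Prp6 (-446 bp) and SNRPG (-400 bp). Other gene starts near these summits are not given here, so a summit may lie nearer to another gene.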

How the data were processed

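The series holds ChIP-seq peak lists of 3 replicates of 1 group, in dm6 and dm3, and the dm6 lists were used. Per the deposited notes, the authors made a list of peaks and background for each replicate and for the pooled replicates as input for IDR, and a thresholded list from these, here called reproducible. The authors' signal per peak has no stated scaling, so signals and ranks were compared within a list only. The deposited −log10 q-value reached 4.00 in the pooled list and was not used to rank. The aligner, the peak caller and the IDR threshold are not named in the sources used here. These sources give no read numbers, and sequencing depth is therefore unknown.

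The 5326 reproducible peaks were the 5326 strongest pooled peaks. The replicate lists held 30000, 24267 and 24306 peaks. Genes came from Ensembl release 115 (BDGP6.54), with transposable elements left out, and the 32 snRNA genes had the same positions in the RefSeq table of the Release 6 assembly. A gene had a peak when a summit lay within 500 bp of its annotated 5' end, 1 end per gene. Types followed the gene names. Motifs were searched on both strands unless stated. The look-up was tested on simulated summits. Members and lists were chosen with earlier results of these data known. Every snRNA gene was named or counted. For the protein lists, the members with the 4 highest signals were named. Of 49 listed names 48 were found, 7 of them through other symbols, and IntS15 was not matched. Sequences were shown for the 12 genes with the highest signal and for 4 copies without a pooled summit. Intervals are exact binomial (Clopper-Pearson, 95%), covering counting error only. The labels number the samples as biological replicates. Python 3.11.15 with numpy 2.4.6, pandas 2.3.3, scipy 1.17.1 and matplotlib 3.10.9 was used. Alternatives were windows of 200 and 1000 bp, other distance rules, other lists and leaving out replicates.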

Additional observations from a re-analysis of the deposited data

How the results depend on the processing

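The count of 7 of 32 snRNA genes was 5 with a window of 200 bp, which drops U5:35D and U6:96Ab, and 9 with 1000 bp, which adds U11 and U5:38ABb. It was 6 without the summit nearer to ND-B17, and 6 of 26 with neighbouring genes counted once. It was 3 with the 2663 strongest reproducible peaks and 14 with all pooled peaks, beside 43.5% of all genes with a pooled summit. It was 0 of 9 among genes with at least 95% of unique words, an alternative chosen after seeing the data. No share of all genes was counted for the 2663 strongest peaks, for neighbouring genes counted once or for genes of unique sequence. Whether these counts differ from those of other genes is therefore not known. Leaving out a replicate (keeping peaks that the strongest peaks of both others overlap) gave 5 to 6, without U2:34ABb, U4:39B or both. The mean count per replicate, 6.67, was 13 with the whole lists and 6.50 to 7.00 with 1 replicate left out. The median summit position of 93 bp downstream was 61 bp, 133 bp and 114 bp in replicates 1, 2 and 3, and the median rank, 51.8% of the list from the top, was 47.2%, 73.8% and 35.7%. These medians cover the 7, 7 and 6 genes with a summit among each replicate's strongest peaks, not the same genes throughout. Replicate 2 had 7SKa and lacked U4:39B, and replicate 3 lacked U2:34ABb. The share of all genes was 21.7% with any annotated transcript start, 14.4% with 200 bp, 24.2% with 1000 bp and 15.9% to 17.5% with 1 replicate left out. For protein-coding genes these were 26.3%, 18.0%, 27.8% and 19.2% to 21.3%. The cause of these shifts was not tested. The list of 48 genes had 13 with 200 bp. No paired analysis was possible because there is 1 group. The dm3 lists were not used here, since no annotation of that build was at hand. Unknown depth limits what the absence of a summit can show.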
